A study of Homo sapiens with 66 samples.

Results

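A375 melanoma cells carrying knockouts of both HDAC3 and MED23 were compared with A375 cells carrying the MED23 knockout alone, so the comparison reads the effect of losing HDAC3 in cells whose MED23 is knocked out too. The double knockout is labelled HDAC3 MED23 dKO (dKO below) and has 3 libraries; the MED23 knockout (MED23 KO) also has 3, and together they are 6 of the 66 libraries of the series. The remaining 6 libraries of the same batch, 3 of an HDAC3 knockout (HDAC3 KO) and 3 of wild-type control cells (Ctrl), were used to set HDAC3 loss in cells with MED23 beside it. Libraries of 2 other experiments, MED23 guides against a GFP guide in DMSO and a MED23 guide against a GFP guide in cells with an empty vector, served only to define MED23-dependent genes. A375 is a human melanoma line with mutant BRAF, grown here in DMEM with bovine serum, and the labels give these 4 groups no drug or vehicle. Poly(A) RNA was sequenced and reads were counted per gene. The labels do not say which guides were used, whether a knockout is 1 clone or a pool, in which order the double knockout was made, or whether replicates were separate cultures. The p-values therefore measure only the spread between these libraries.

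HDAC3 is the catalytic subunit of corepressor complexes built on NCOR scaffold proteins, in which it removes acetyl groups from histones at genes bound by nuclear receptors and other repressing factors. Mediator links transcription factors to RNA polymerase II, and MED23, in its tail module, is a contact for factors activated by the MAP kinase pathway. In melanoma cells SOX10 and MITF are the main regulators of the melanocytic lineage, and low levels of both, with high EGFR or AXL, mark a dedifferentiated state.

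The 6 libraries held between 58.8 and 106 M counts on genes, and 21139 genes had enough counts to be tested. Mitochondrial transcripts took 1.55 to 1.66% of counts in dKO and 1.73 to 1.81% in MED23 KO libraries. The 10 most abundant genes took 5.15 to 5.20% in dKO, against 4.00 to 4.09% in MED23 KO. The median log2 fold change over all genes tested was -0.0070. Levels are given as CPM, the counts of a gene scaled by the TMM-adjusted size of its library, and fold changes as log2 values of dKO over MED23 KO with their standard error. A single gene is said to rise or fall at an adjusted p under 0.05. Genome-wide counts are given at that threshold and again with a 2-fold minimum. The 9 melanoma and melanocyte markers summed to 725 to 798 CPM in dKO and 449 to 467 CPM in MED23 KO libraries. SOX10, PRAME, S100B and MITF made up most of that sum, whereas TYR was at 0 counts in all 3 MED23 KO libraries and PMEL stayed under 1 CPM in every dKO and MED23 KO library. All 5 epithelial markers and 4 of 5 blood markers (all but LYZ) lay under 1 CPM in each of the 6 libraries, with HBB at 0. The epithelial markers were EPCAM, CDH1, KRT5, KRT19 and GRHL2. KRT14, outside that set, stood at 14.6, 13.5 and 11.0 CPM in dKO and 4.08, 3.49 and 3.17 CPM in MED23 KO.

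The mRNA of the targeted genes was read first. HDAC3 (ENSG00000171720, chromosome 5, 141620876 to 141636870, GRCh38) stood at 34.8, 34.2 and 35.6 CPM in dKO libraries, against 60.1, 61.2 and 57.1 CPM in MED23 KO libraries. The groups did not overlap, and HDAC3 fell by 0.77 on the log2 scale (SE 0.050, adjusted p = 3.7e-11), which left 58.6% of the MED23 KO level. In cells with MED23 the knockout left 29.6 CPM in HDAC3 KO against 57.9 CPM in Ctrl cells (-0.97 ± 0.050); the 2 changes differed by 0.20 on the log2 scale (adjusted p = 0.0476), a difference that missed the threshold when any one of 11 of the 12 libraries was left out, the exception being HDAC3 KO replicate 1. MED23 (ENSG00000112282, chromosome 6, 131573966 to 131628229) was at 18.2, 16.8 and 17.5 CPM in dKO and 16.0, 15.3 and 15.6 CPM in MED23 KO libraries, with HDAC3 KO and Ctrl cells at 34.6 and 32.9 CPM. Its small rise in dKO (0.16 ± 0.062, adjusted p = 0.0442) was lost under 7 of 11 alternatives, among them the omission of any single library except replicate 2 of dKO. Messenger RNA does not measure protein, and an edited transcript can persist, so these values check the labels rather than the loss of protein. HDAC3 overlaps an antisense gene and the strand setting of the counting is not given in the sources used here, so some of its counts may belong to that gene.

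**Figure D1:**
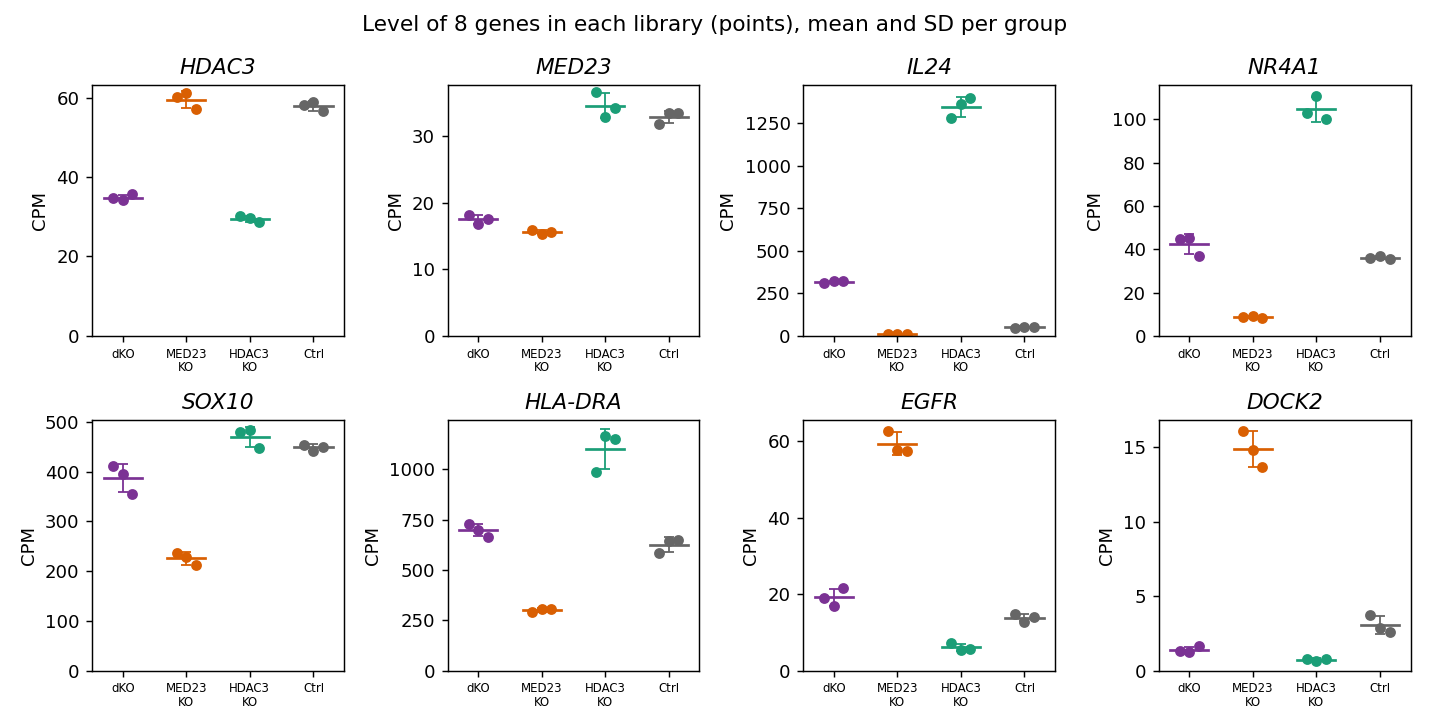
Levels of 8 genes in CPM (y axis, from 0) in each library, by group from left to right dKO, MED23 KO, HDAC3 KO and Ctrl; points are libraries, bars the mean and whiskers the SD of 3 libraries. HDAC3 is low in dKO and HDAC3 KO, MED23 is low in dKO and MED23 KO, and for IL24, NR4A1, SOX10 and HLA-DRA every dKO library lies above every MED23 KO library, while for EGFR and DOCK2 every dKO library lies below.

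Of the HDAC3 corepressor complex, 8 members were tested, HDAC3 itself among them: 1 rose, 5 fell and 2 did not pass, beside 19.1% and 18.9% of all genes tested that rose and fell. CORO2A, a coronin found with the NCOR complex, was at 8.91, 9.64 and 9.89 CPM in dKO and 19.0, 18.2 and 18.0 CPM in MED23 KO libraries (-0.96 ± 0.065, adjusted p = 8.61e-11). NCOR1, the scaffold that binds and activates HDAC3, fell less (-0.33 ± 0.053, adjusted p = 2.75e-05). TBL1XR1, an exchange subunit, was the member that rose, at 226, 246 and 265 CPM in dKO against 142, 157 and 159 CPM in MED23 KO libraries (0.69 ± 0.055, adjusted p = 1.43e-09). Its close relative TBL1X fell slightly (-0.13 ± 0.043, adjusted p = 0.018), as did the histone demethylase KDM4A (-0.17 ± 0.053, adjusted p = 0.0159). Both small falls missed the threshold without MED23 KO replicate 1, which leaves 3 members falling, HDAC3 included; TBL1X also missed it without dKO replicate 1 and KDM4A without dKO replicate 2. GPS2, another subunit, had 0.035 ± 0.13 (adjusted p = 0.871), and its sign turned without replicate 2 of either group. NCOR1, TBL1XR1, KDM4A and GPS2 overlap genes on the opposite strand.

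Among the other deacetylases of classes I and II, 2 of 10 rose and 2 fell (20% each), near the 19.1% and 18.9% of all genes tested. HDAC9, a class IIa enzyme that itself recruits HDAC3 complexes, was at 31.5, 30.5 and 32.5 CPM in dKO and 8.36, 8.40 and 10.1 CPM in MED23 KO libraries (1.82 ± 0.071, adjusted p = 6.02e-15). HDAC5, of the same class, also rose (0.74 ± 0.071, adjusted p = 2.21e-08), whereas HDAC7 (-0.33 ± 0.071, adjusted p = 0.000815) and HDAC10 (-0.75 ± 0.20, adjusted p = 0.00519) fell. HDAC1 and HDAC2, the class I enzymes of other corepressors, did not pass (-0.033 ± 0.038 and 0.061 ± 0.043).

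HDAC3 loss in MED23 knockout cells changed 8033 of 21139 genes (38%) at an adjusted p under 0.05, 4038 higher (19.1%) and 3995 lower (18.9%). With the 2-fold minimum 1274 genes remained (6.03%), of which 626 were higher (2.96%) and 648 lower (3.07%) in dKO. Of the 21139 genes, 11603 had a mean log2 CPM of at least 2 over the 12 libraries. Shares over all genes tested, set beside list counts, take in genes of every level and were not matched to the level of a list. The genes named for the size of their change averaged a log2 CPM of 2 or more over the 6 libraries, with all 3 dKO libraries on one side of all 3 MED23 KO libraries; such separation held for 46.5% of all genes tested, whatever their level.

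**Figure D2:**
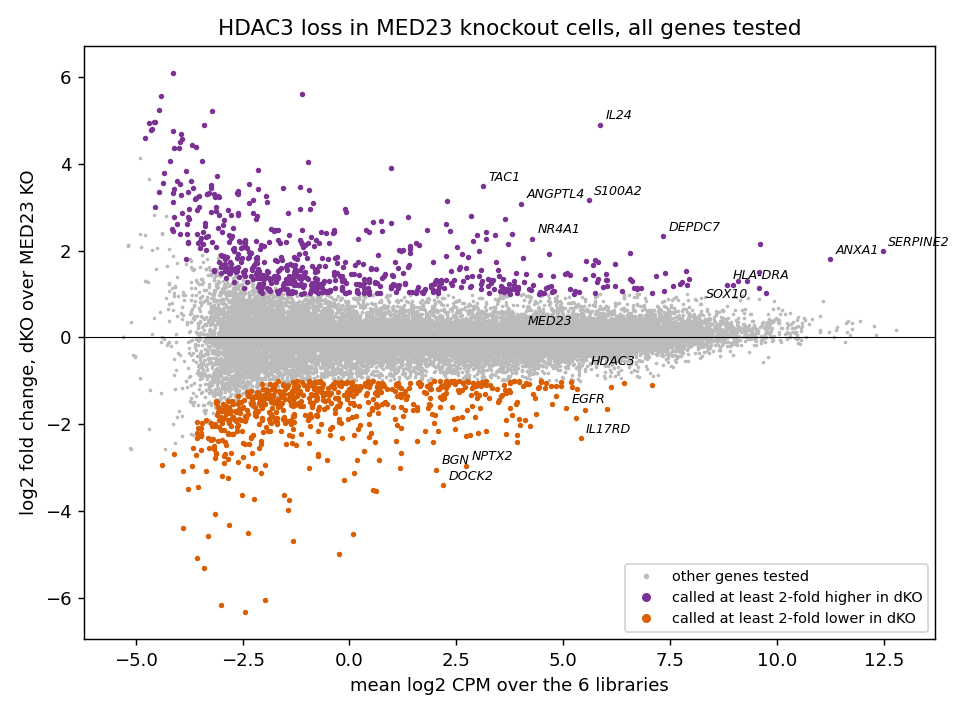
Mean log2 CPM over the 6 libraries (x axis) against the log2 fold change of dKO over MED23 KO (y axis) for the 21139 genes tested; coloured points are the 626 genes called at least 2-fold higher and the 648 called at least 2-fold lower. IL24 stands highest among well-expressed genes, DOCK2 and BGN lowest, and HDAC3 itself lies at -0.77.

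Among genes of that level, IL24 rose most. IL24 (ENSG00000162892, chromosome 1, 206897443 to 206904139), a cytokine of the IL-10 family, stood at 313, 319.8 and 323 CPM in dKO libraries, against 10.4, 11.2 and 10.3 CPM in MED23 KO libraries (4.91 ± 0.060, adjusted p = 7.92e-24). TAC1, which encodes the neuropeptide precursor of substance P, had 30.1, 27.6 and 29.5 CPM in dKO and 2.72, 2.35 and 2.66 CPM in MED23 KO (3.49 ± 0.092). For both genes each dKO library lay more than 10-fold above every MED23 KO library. S100A2, a calcium-binding protein, had 154, 151 and 130.2 CPM in dKO and 15.7, 16.0 and 17.1 CPM in MED23 KO (3.16 ± 0.073). LRRC15, a leucine-rich repeat membrane protein, had 14.1, 15.6 and 13.9 CPM in dKO and 1.71, 2.00 and 1.24 CPM in MED23 KO (3.13 ± 0.13). ANGPTL4, a secreted inhibitor of lipoprotein lipase and a target of PPAR factors, reached 49.3, 50.6 and 42.3 CPM in dKO, against 6.21, 5.84 and 4.67 CPM in MED23 KO (3.08 ± 0.097). Adjusted p-values of these 5 genes lay between 7.9e-24 and 1.3e-14. The next 10 were MMP8, a collagenase (2.80 ± 0.076), TRAF1, an adaptor of TNF receptors (2.74 ± 0.069), the non-coding RNAs TEX41 (2.61 ± 0.10) and LINC02915 (2.44 ± 0.10), PLEKHS1 (2.42 ± 0.11), the protease inhibitor A2M (2.37 ± 0.074), the matrix protein SPON2 (2.36 ± 0.091), the VEGF receptor KDR (2.36 ± 0.0999), DEPDC7 (2.33 ± 0.047) and the orphan nuclear receptor NR4A1 (2.27 ± 0.074). DEPDC7 was at 357, 352 and 379.7 CPM in dKO and 72.9, 70.3 and 73.8 CPM in MED23 KO libraries. ANGPTL4, A2M and NR4A1 overlap genes on the opposite strand, so their counts are uncertain to that extent.

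The promoters of 3 genes that rose, S100A2, LRRC15 and the cytokine IL11 described below, are shown because each holds the AP-1 element TGANTCA (in capitals) within the 120 bases before its start site. Sequences are RefSeq's on GRCh38.p14, all on the minus strand, 5′ to 3′.
S100A2, chr1:153565845-153565964: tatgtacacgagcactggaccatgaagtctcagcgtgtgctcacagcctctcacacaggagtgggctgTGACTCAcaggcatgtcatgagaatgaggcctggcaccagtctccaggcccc
LRRC15, chr3:194369744-194369863: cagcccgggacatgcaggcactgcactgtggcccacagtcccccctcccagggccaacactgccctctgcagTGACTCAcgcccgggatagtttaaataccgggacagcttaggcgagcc
IL11, chr19:55370464-55370583: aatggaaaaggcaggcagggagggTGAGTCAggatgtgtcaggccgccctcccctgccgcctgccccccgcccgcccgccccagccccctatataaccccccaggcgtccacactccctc
Over windows from 250 bases before to 50 after the start, searched on both strands, TGANTCA occurred in 39 of the 350 promoters found for the 626 higher genes (11.1%), in 25 of 399 for the 648 lower genes (6.27%) and in 676 of 12772 for all genes tested (5.29%). The CRE TGACGTCA occurred in 1.14% of higher, 2.01% of lower and 3.05% of all promoters, and the E-box CACGTG in 4.57%, 5.51% and 9.72%. The ROR and REV-ERB element RORE was rare, in 2 higher promoters, 1 lower promoter and 11 in all. The nuclear receptor repeat DR1 was in 3 promoters in all, none of them of a gene called at 2-fold, and DR4 and DR5 were in none. A match in these windows is a description of letters and was not tested as a binding site.

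Among genes with a mean log2 CPM of at least 2 over the 6 libraries, DOCK2 fell most. DOCK2, an activator of the GTPase RAC known from blood cells, stood at 1.30, 1.25 and 1.63 CPM in dKO libraries, against 16.1, 14.8 and 13.7 CPM in MED23 KO libraries (-3.41 ± 0.14, adjusted p = 1.53e-14). BGN, the matrix proteoglycan biglycan, had 1.25, 1.45 and 1.53 CPM in dKO and 11.9, 11.6 and 11.6 CPM in MED23 KO (-3.05 ± 0.11). NPTX2, a neuronal pentraxin, had 2.44, 2.68 and 1.98 CPM in dKO and 18.2, 19.9 and 16.9 CPM in MED23 KO (-2.96 ± 0.11). In all 3 genes the highest dKO library lay far below the lowest MED23 KO library. IL17RD, a feedback inhibitor of FGF and ERK signalling, had 17.7, 18.6 and 20.8 CPM in dKO and 100.1, 91.8 and 92.7 CPM in MED23 KO (-2.32 ± 0.070). Receptors that fell were the ephrin receptor EPHA7 (-2.40 ± 0.11), the scavenger receptor MEGF10 (-2.22 ± 0.084), the lysophosphatidic acid receptor LPAR1 (-2.10 ± 0.15) and the protease-activated receptor F2RL1 (-2.02 ± 0.085). Transcription factors that fell were the orphan receptor NR2F1 (-2.28 ± 0.10), GATA3 (-2.25 ± 0.11) and the thyroid hormone receptor THRB (-2.04 ± 0.069). The remaining 4 were the secreted glycoprotein FSTL1 (-2.24 ± 0.071), the mannosyltransferase TMTC1 (-2.20 ± 0.098), METTL7A (-2.16 ± 0.11) and the cyclic GMP phosphodiesterase PDE5A (-2.15 ± 0.089). Adjusted p-values of these 15 genes lay between 1.15e-16 and 1.3e-10. NR2F1 and THRB overlap antisense genes, and FSTL1 and PDE5A each a pseudogene on the other strand; among genes named further on, NGFR, EGFR, AXL, CCND1, DUSP6 and CDKN1A have a gene on the opposite strand too.

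Genes that depend on MED23 were defined without any library of this comparison: they had to change at least 2-fold in the same direction, at an adjusted p under 0.05, in both other experiments with MED23 guides. The first experiment called 3.73% of its genes higher and 2.96% lower after MED23 loss, and the second 3.02% and 2.33%. Together they gave 391 genes higher after MED23 loss, of which 386 were tested here, and 329 lower genes, all tested. Of the 386 genes that MED23 loss raised, 263 fell (68.1%) and 22 rose (5.70%) in dKO against MED23 KO, with a median log2 fold change of -1.04. Of the 329 genes that MED23 loss lowered, 238 rose (72.3%) and 18 fell (5.47%), with a median of 0.98. Over all genes tested 19.1% rose, 18.9% fell and the median was -0.0070. Fitted on the 6 libraries alone, 10 instead of 18 genes of the lower set fell. Without MED23 knockout in the background, HDAC3 KO against Ctrl, 166 of the 386 fell (43%) and 74 rose (19.2%). Of the 329, 192 rose (58.4%) and 63 fell (19.1%). Over all genes tested 21.2% rose and 20.9% fell in HDAC3 KO against Ctrl. The difference between the 2 HDAC3 effects passed for 146 of the 386 genes in the negative and 24 in the positive direction, and for 127 of the 329 in the positive and 37 in the negative direction, against 10% of all genes tested in the positive and 10.5% in the negative direction.

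Read per library against the mean of the Ctrl libraries, the 386 raised genes had a median log2 level of 0.54, 0.52 and 0.49 in dKO and of 1.45, 1.40 and 1.40 in MED23 KO libraries. The 329 lowered genes had medians of -0.51, -0.51 and -0.54 in dKO and of -1.36, -1.39 and -1.43 in MED23 KO libraries. Both sets thus lay between the Ctrl level and the MED23 KO level in every dKO library. In HDAC3 KO libraries the same sets had medians of -0.37, -0.35 and -0.43 (raised genes) and of 0.65, 0.61 and 0.56 (lowered genes), on the other side of the Ctrl level from MED23 KO. Against Ctrl, 175 raised genes were called higher and 37 lower in dKO, while 355 were called higher in MED23 KO. Of the lowered genes, 184 were called lower and 39 higher in dKO, and 314 were called lower in MED23 KO. Over all genes tested, 18.2% were called higher and 18.4% lower in dKO against Ctrl, and 12.3% and 12% in MED23 KO against Ctrl. These 2 comparisons share their Ctrl libraries. MED23 mRNA itself was 0.16 higher in dKO on the log2 scale; its part in these values was not tested.

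**Figure D3:**
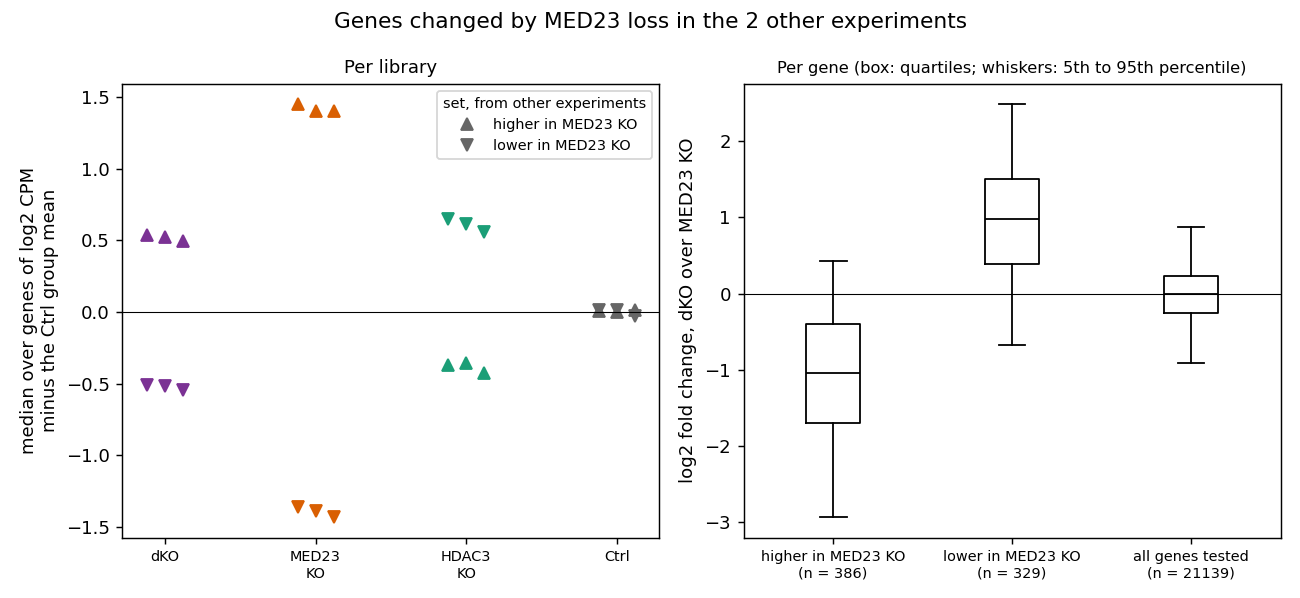
Genes changed by MED23 loss in the 2 other experiments. Left, median over each set of log2 CPM minus the Ctrl group mean (y axis) for each of 12 libraries, triangles pointing up for the 386 raised and down for the 329 lowered genes; dKO medians lie near 0.5 and -0.5, MED23 KO medians near 1.4 and -1.4. Right, log2 fold changes of dKO over MED23 KO per gene (box, quartiles; whiskers, 5th to 95th percentile), with medians of -1.04, 0.98 and -0.0070 over all genes.

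**Figure D4:**
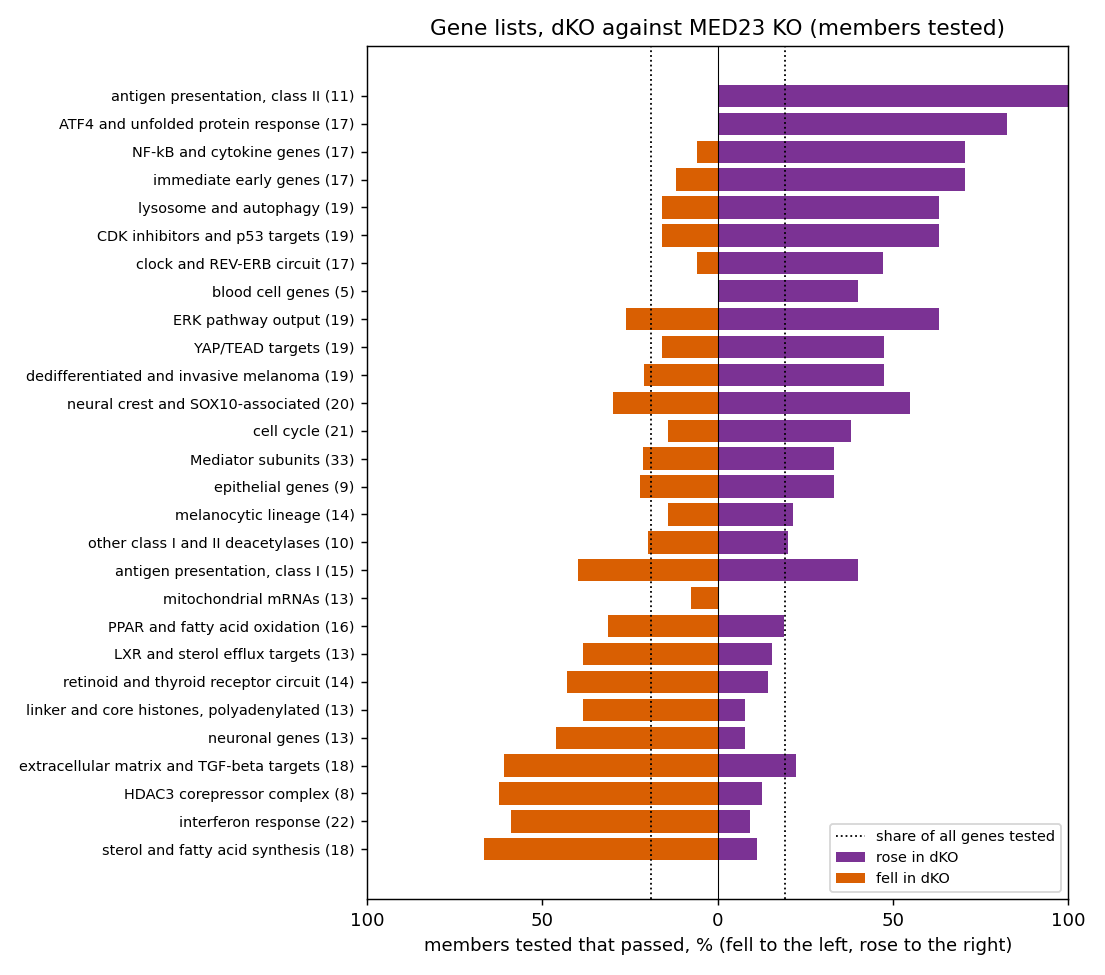
Share of the tested members of each gene list (number in brackets) that rose (right) or fell (left) in dKO against MED23 KO at an adjusted p under 0.05, ordered by the difference; dotted lines mark the shares over all genes tested, 19.1% and 18.9%. All 11 class II antigen presentation genes rose, and sterol synthesis, interferon and matrix lists hold more genes that fell.

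Of 20 neural crest and SOX10-associated genes (median 0.31), 11 rose (55%) and 6 fell (30%), beside 19.1% and 18.9% of all genes tested. SOX10 (ENSG00000100146, chromosome 22, 37970686 to 37987422), the lineage factor of neural crest and melanocytes, was at 411, 396 and 356 CPM in dKO and 236, 229 and 212 CPM in MED23 KO libraries. Its groups did not overlap and it rose (0.78 ± 0.052, adjusted p = 5.51e-11), to a level between MED23 KO and the 449 CPM of Ctrl cells; it overlaps POLR2F on the other strand. NGFR, the nerve growth factor receptor of neural crest-like melanoma cells, had 191, 184 and 181 CPM in dKO and 51.6, 48.7 and 44.2 CPM in MED23 KO (1.94 ± 0.055). RXRG, a retinoid receptor of the same state, had 12.6, 12.9 and 10.8 CPM in dKO and 3.18, 3.47 and 2.86 CPM in MED23 KO (1.93 ± 0.086). S100B, a clinical melanoma marker, had 1.76 ± 0.075, and ANXA1, an anti-inflammatory annexin, had 4434, 4510 and 4637 CPM in dKO and 1244, 1303 and 1353 CPM in MED23 KO (1.80 ± 0.049). The receptor tyrosine kinase ERBB3, which SOX10 is known to activate, rose as well (0.86 ± 0.048). Against them SOX9, a factor that opposes SOX10 in melanoma cells, was at 0.316, 0.478 and 0.464 CPM in dKO and 4.51, 5.04 and 5.12 CPM in MED23 KO (-3.52 ± 0.23, adjusted p = 4.45e-11), and the neural crest factors TFAP2A (-1.13 ± 0.080) and TFAP2B (-0.68 ± 0.048) fell.

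Of 14 melanocytic genes 3 rose (21.4%), 2 fell (14.3%) and 9 did not pass, near the 19.1% and 18.9% of all genes tested that rose and fell. MITF, the master regulator of pigment cells, was at 49.7, 53.4 and 56.7 CPM in dKO and 60.0, 62.2 and 64.8 CPM in MED23 KO libraries and fell slightly (-0.23 ± 0.054, adjusted p = 0.00209). BCL2A1, a survival gene that MITF is known to activate, rose to 4.18, 3.36 and 3.40 CPM in dKO, against 0.562, 0.490 and 0.658 CPM in MED23 KO (2.67 ± 0.17). DCT, an enzyme of pigment synthesis, had 551 counts over the dKO libraries and 15 over the MED23 KO libraries, 2.65, 2.87 and 3.20 CPM in dKO. OCA2, a melanosome transporter, rose (0.75 ± 0.19; adjusted p = 0.0509 without dKO replicate 2) and RAB27A, of melanosome transport, fell (-0.36 ± 0.086). PMEL and MLANA, structural genes of pigment cells, did not pass.

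Of 19 genes of dedifferentiated and invasive melanoma cells (median 0.041), 9 rose and 4 fell, beside 19.1% and 18.9% of all genes tested. EGFR, the epidermal growth factor receptor, was at 19.0, 17.0 and 21.5 CPM in dKO and 62.8, 57.8 and 57.5 CPM in MED23 KO libraries; it fell (-1.63 ± 0.086, adjusted p = 1.05e-12) and the groups did not overlap. PDGFRB (-0.88 ± 0.093) and TGFBI (-0.53 ± 0.045) fell too, while AXL, the other receptor used to mark this state, did not pass (-0.043 ± 0.044, adjusted p = 0.488). SERPINE2, a secreted protease inhibitor, had 11050, 11270 and 11680 CPM in dKO and 2869, 2882 and 2857 CPM in MED23 KO (1.98 ± 0.032, adjusted p = 1.27e-21). FOSL1, the AP-1 subunit FRA1, rose less (0.82 ± 0.048). YAP and TEAD targets gave 9 rises and 3 falls among 19, all within a log2 change of 0.64, led by the kinase LATS2 (0.64 ± 0.053) and the matricellular gene CCN2 (0.52 ± 0.060). The 3 falls of that list became 1 without dKO replicate 2 and 0 without MED23 KO replicate 1 or 2.

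Extracellular matrix and TGF-beta genes mainly fell (median -0.56), 11 of 18 against 4 that rose, beside 18.9% and 19.1% of all genes tested. Besides BGN, COL1A1, a chain of type I collagen, fell to 1.05, 0.895 and 0.823 CPM in dKO, against 4.84, 4.85 and 4.70 CPM in MED23 KO (-2.38 ± 0.15, adjusted p = 1.65e-11). COL3A1, of type III collagen, had 2 counts over the dKO and 71 over the MED23 KO libraries. TGFB2, a TGF-beta ligand (-1.42 ± 0.12), and COL5A1 (-1.14 ± 0.076) fell as well, and fibronectin, FN1, had 96.0, 94.96 and 102 CPM in dKO and 169, 163 and 151 CPM in MED23 KO (-0.72 ± 0.054). Among the members that rose, THBS1, thrombospondin, had 2793, 2804 and 3125 CPM in dKO and 1671, 1599 and 1636 CPM in MED23 KO (0.83 ± 0.047), and SPARC, a collagen-binding protein, rose too (0.49 ± 0.032). The summed level of the 6 fibroblast markers was 42.7 to 46.6 CPM in dKO and 34.7 to 37.1 CPM in MED23 KO libraries. LUM gave most of the dKO sum, at 32.9, 31.8 and 35.8 CPM, against 15.5, 15.9 and 17.9 CPM in MED23 KO. LUM and DCN were higher in dKO, whereas COL1A1, COL3A1, PDGFRA and PDGFRB were lower. The part of fibroblast markers in these changes was not tested.

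All 11 class II antigen presentation genes rose (median 1.08), 8 of them at least 2-fold, beside 19.1% and 2.96% of all genes tested. CIITA, the coactivator that switches on class II genes, had 92.1, 93.2 and 88.3 CPM in dKO and 45.6, 38.4 and 37.5 CPM in MED23 KO libraries (1.17 ± 0.064, adjusted p = 2.03e-12). HLA-DRA, the alpha chain of HLA-DR, had 728, 698 and 666 CPM in dKO and 291, 304 and 308 CPM in MED23 KO (1.21 ± 0.057, adjusted p = 1.3e-13). The groups did not overlap for either gene. HLA-DQA1, of HLA-DQ (1.41 ± 0.078), the peptide exchange subunit HLA-DMB (1.30 ± 0.075) and its modulator HLA-DOA (1.22 ± 0.079) rose by similar amounts, and the invariant chain CD74 reached 1288, 1263 and 1136 CPM in dKO, against 612, 623 and 569.9 CPM in MED23 KO (1.03 ± 0.046). The smallest rise was in HLA-DPB1 (0.37 ± 0.058). In cells with MED23, HLA-DRA also rose after HDAC3 loss (0.82 ± 0.056), and CIITA did (0.71 ± 0.062). HLA genes have near-identical relatives and CIITA overlaps DEXI, so single values are uncertain. The blood cell markers summed to 11.2 to 13.0 CPM in dKO and 8.42 to 9.91 CPM in MED23 KO libraries, nearly all of it from LYZ, which rose (0.39 ± 0.11). CD14, a monocyte gene, rose as well (1.11 ± 0.40), with 94 and 61 counts over the dKO and MED23 KO libraries. The CD14 call was lost when any single library except dKO replicate 3 was left out (adjusted p between 0.0521 and 0.096). PTPRC, found on all white blood cells, did not pass, with 24 and 20 counts. The part of these genes in the class II values was not tested.

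The promoters of 3 class II genes are shown for the Y box CTGATTGG (in capitals), the element through which the factor NF-Y acts on these genes as background; these letters were chosen after the values were seen. All are RefSeq sequences on GRCh38.p14, minus strand, 120 bases before the start site, 5′ to 3′.
HLA-DRB1, chr6:32589849-32589968: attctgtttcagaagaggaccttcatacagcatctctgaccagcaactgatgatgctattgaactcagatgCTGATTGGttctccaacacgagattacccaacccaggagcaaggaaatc
HLA-DQB1, chr6:32666658-32666777: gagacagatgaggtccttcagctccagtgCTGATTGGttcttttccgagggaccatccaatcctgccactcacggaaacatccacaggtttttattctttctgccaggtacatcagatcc
HLA-DMA, chr6:32953098-32953217: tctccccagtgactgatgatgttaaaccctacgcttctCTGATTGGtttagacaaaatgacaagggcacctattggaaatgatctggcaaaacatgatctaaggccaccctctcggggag
CTGATTGG, on either strand, was found in 3 of the 9 class II promoters matched (33.3%) and in 717 of 12772 promoters of all genes tested (5.61%). It was in 6% of promoters of the 2-fold higher genes and 3.01% of the lower genes. Among 2 other lists described below, 4 of 16 ATF4 and unfolded protein response promoters held it (25%), and 0 of 14 immediate early promoters. HLA-DRB1 had 78.2, 75.7 and 74.9 CPM in dKO and 38.8, 36.2 and 36.7 CPM in MED23 KO libraries (1.03 ± 0.047), HLA-DQB1 had 0.92 ± 0.066 and HLA-DMA 1.08 ± 0.054.

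Class I antigen presentation split evenly, 6 of 15 up and 6 down (40% each), beside 19.1% and 18.9% of all genes tested. The heavy chains and their partner rose: HLA-B had 119, 122 and 111 CPM in dKO and 69.2, 69.7 and 66.5 CPM in MED23 KO (0.77 ± 0.045), HLA-F had 0.76 ± 0.12, HLA-E 0.55 ± 0.049 and B2M, the shared light chain, 0.53 ± 0.079. NLRC5, the coactivator of class I genes, fell to 5.32, 4.67 and 5.30 CPM in dKO, against 9.21, 8.499 and 8.42 CPM in MED23 KO (-0.78 ± 0.093, adjusted p = 6.94e-07), together with peptide-loading and proteasome genes. The 6 falls became 3 without dKO replicate 1, and also 3 without MED23 KO replicate 1 or 2. Interferon response genes mainly fell, 13 of 22 against 2 that rose (median -0.30). OAS2, an antiviral synthetase, was at 6.15, 5.97 and 6.23 CPM in dKO and 10.3, 11.3 and 9.62 CPM in MED23 KO libraries (-0.77 ± 0.091, adjusted p = 5.23e-07). OASL (-1.51 ± 0.28) and IFIT1, which binds viral RNA (-0.60 ± 0.086), fell too, and OAS1 went the other way (0.90 ± 0.085, adjusted p = 1.77e-08). The 2 rises became 1 without dKO replicate 2 or without MED23 KO replicate 3.

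NF-kB and cytokine genes (median 0.65) rose in 12 of 17 cases and fell in 1, beside 19.1% and 18.9% of all genes tested. After IL24, 4 more genes rose at least 2-fold: BIRC3, an apoptosis inhibitor that NF-kB induces (1.16 ± 0.10), the cytokine IL11, at 28.2, 27.3 and 27.8 CPM in dKO and 12.7, 13.6 and 13.0 CPM in MED23 KO (1.09 ± 0.081, adjusted p = 4.06e-10), the cytokine IL1A (1.05 ± 0.24) and the chemokine CXCL1 (1.02 ± 0.097). IL1A was low, at 1.76, 0.802 and 1.75 CPM in dKO and 0.464, 0.896 and 0.790 CPM in MED23 KO libraries, and its second dKO library lay below 1 of the MED23 KO libraries. The member that fell was CCL2, a chemokine for monocytes, with 2.23, 2.70 and 2.17 CPM in dKO and 4.87, 5.21 and 5.40 CPM in MED23 KO (-1.12 ± 0.13, adjusted p = 4.02e-07). Immediate early genes also rose in 12 of 17 cases, and 2 fell (median 0.45). NR4A1 had 44.9, 45.3 and 37.1 CPM in dKO, against 8.90, 9.27 and 8.11 CPM in MED23 KO, and EGR3, a zinc finger factor, 17.4, 22.0 and 21.1 CPM in dKO against 3.80, 3.74 and 5.11 CPM in MED23 KO (2.27 ± 0.11, adjusted p = 2.76e-13). FOSB, an AP-1 subunit, had 18.2, 19.4 and 18.0 CPM in dKO and 7.07, 7.09 and 6.65 CPM in MED23 KO (1.42 ± 0.071), and the stress factor ATF3 had 1.04 ± 0.082. JUND, the AP-1 subunit that is active in resting cells, fell (-0.87 ± 0.077, adjusted p = 6.93e-09).

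Genes that report ERK pathway output rose in 12 of 19 cases and fell in 5 (median 0.19), all by less than 2-fold. Among all genes tested 19.1% rose and 18.9% fell. CCND1, cyclin D1, was at 751, 770.2 and 771 CPM in dKO and 422, 424 and 417 CPM in MED23 KO libraries, with no overlap (0.86 ± 0.038, adjusted p = 5.05e-14). IER3, an early response gene (0.99 ± 0.050), and the ERK phosphatases DUSP5 (0.84 ± 0.076) and DUSP6 (0.58 ± 0.052) rose as well, and SPRY2, a feedback inhibitor, did (0.60 ± 0.041). The falls were smaller, the largest in SPRED3 (-0.41 ± 0.061). Of 21 cell cycle genes 8 rose (38.1%) and 3 fell (14.3%), beside 19.1% and 18.9% of all genes tested, and none reached 2-fold. E2F1, the factor that drives S phase entry (0.69 ± 0.060), cyclin E2, CCNE2 (0.63 ± 0.083), the replication clamp PCNA, at 424, 399 and 409 CPM in dKO and 276, 283 and 288 CPM in MED23 KO (0.54 ± 0.047), and RRM2 (0.43 ± 0.041) rose. MKI67, the proliferation marker, did not pass (0.025 ± 0.061, adjusted p = 0.795) and its sign turned without dKO replicate 3.

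CDK inhibitors and p53 targets (median 0.32) rose in 12 of 19 cases and fell in 3, beside 19.1% and 18.9% of all genes tested. CDKN1A, the inhibitor p21, stood at 338, 337 and 305 CPM in dKO and 142, 139 and 137 CPM in MED23 KO libraries (1.23 ± 0.046, adjusted p = 3.79e-15). The death receptor TNFRSF10B (0.58 ± 0.041) and the p53 ligase MDM2 (0.50 ± 0.055) rose by less, whereas the inhibitors CDKN2C (-0.53 ± 0.051) and CDKN1B, p27 (-0.44 ± 0.055), fell. Of 17 ATF4 and unfolded protein response genes, 14 rose and none fell in the fit over all 4 groups (median 0.46). In the same list 1 gene fell with replicates as blocks, without the low-count filter, or without dKO replicate 1 or MED23 KO replicate 3. CHAC1, a glutathione-degrading enzyme induced by ATF4, had 4.02, 4.12 and 3.44 CPM in dKO and 1.46, 0.840 and 1.07 CPM in MED23 KO (1.75 ± 0.16, adjusted p = 1.34e-08). DDIT3, the stress factor CHOP (1.12 ± 0.095), and DNAJB9, a chaperone partner in the endoplasmic reticulum (0.74 ± 0.10), rose, and HSPA5, the chaperone BiP, had 1504, 1526 and 1583 CPM in dKO and 1063, 1043 and 1001 CPM in MED23 KO (0.57 ± 0.037). ASNS, asparagine synthetase, was low, at 0.791, 0.864 and 0.688 CPM in dKO and 0.410, 0.406 and 0.487 CPM in MED23 KO (0.85 ± 0.27, adjusted p = 0.0159), and missed the threshold without dKO replicate 2 or MED23 KO replicate 1.

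Lysosome and autophagy genes (median 0.17) rose in 12 of 19 cases and fell in 3, beside 19.1% and 18.9% of all genes tested. GPNMB, a glycoprotein of lysosomes and melanosomes (0.70 ± 0.042), the autophagy receptor SQSTM1, at 324, 314 and 299 CPM in dKO and 199, 195 and 185 CPM in MED23 KO (0.70 ± 0.046), and WIPI1 (0.66 ± 0.066) rose. The factors that switch such genes on fell: TFEB to 0.510, 0.355 and 0.584 CPM in dKO, against 1.56, 1.41 and 1.32 CPM in MED23 KO (-1.57 ± 0.25, adjusted p = 3.57e-05), and TFE3, its relative (-0.45 ± 0.049).

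The nuclear receptor lists hold known targets of the NCOR and HDAC3 complex. In the clock and REV-ERB circuit (median 0.24) 8 of 17 genes rose and 1 fell, beside 19.1% and 18.9% of all genes tested. BHLHE41, a clock repressor, had 6.41, 6.74 and 7.27 CPM in dKO and 2.86, 2.97 and 2.70 CPM in MED23 KO libraries (1.26 ± 0.0998). NR1D1, the REV-ERB receptor that recruits NCOR and HDAC3, had 25.3, 22.8 and 21.5 CPM in dKO and 13.8, 13.0 and 11.1 CPM in MED23 KO (0.87 ± 0.079, adjusted p = 9.03e-09), and its target BMAL1 rose as well (0.55 ± 0.062). NR1D1 and THRA overlap on opposite strands. In the retinoid and thyroid receptor circuit 2 of 14 rose and 6 fell (median -0.17). Besides RXRG the riser was KLF9, a thyroid hormone target, at 146, 151 and 158 CPM in dKO and 61.6, 59.5 and 58.4 CPM in MED23 KO (1.34 ± 0.044, adjusted p = 3.45e-16); THRB, at 9.15, 9.15 and 9.46 CPM in dKO and 37.2, 38.0 and 39.3 CPM in MED23 KO, and the retinoid binder CRABP2 (-1.06 ± 0.28) fell most.

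PPAR and fatty acid oxidation genes gave 3 rises and 5 falls among 16 (median -0.028), beside 19.1% and 18.9% of all genes tested. Without dKO replicate 3 the rises were 5. After ANGPTL4 the rises were PLIN2, a lipid droplet coat protein, at 729, 698 and 669.8 CPM in dKO and 365, 374.5 and 364 CPM in MED23 KO (0.93 ± 0.039, adjusted p = 2.09e-14), and PDK4, a kinase that restrains glucose oxidation (0.66 ± 0.057). PPARGC1A, a coactivator of mitochondrial genes, was low and fell, at 0.615, 0.879 and 0.584 CPM in dKO and 1.46, 1.46 and 1.61 CPM in MED23 KO (-1.12 ± 0.23), and PPARG itself fell (-0.41 ± 0.049). LXR and sterol efflux targets gave 2 rises and 5 falls among 13 (median -0.24): the cholesterol exporter ABCA1 rose (0.60 ± 0.058), and LPCAT3 (-0.71 ± 0.070) and the receptor NR1H3 (-0.63 ± 0.081) fell. Sterol and fatty acid synthesis fell more often than it rose, 12 of 18 against 2 (median -0.25). LSS, which closes the sterol rings, had 18.5, 17.8 and 16.9 CPM in dKO and 29.4, 26.8 and 26.3 CPM in MED23 KO (-0.64 ± 0.062, adjusted p = 3.17e-08), and FADS2 (-0.45 ± 0.066) and DHCR7 (-0.39 ± 0.056) fell too.

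Genes of other lineages were read in the same way, beside 19.1% of all genes tested that rose and 18.9% that fell. Neuronal genes fell in 6 of 13 cases, with 1 rise (median -0.42). MAP2, a dendrite microtubule protein, was at 0.123, 0.139 and 0.150 CPM in dKO and 4.78, 4.37 and 4.18 CPM in MED23 KO libraries, 26 and 1166 counts over the groups, while HDAC3 KO and Ctrl cells had 0.139 and 0.125 CPM. SNAP25, of the synaptic release machinery, had 1.07, 1.10 and 1.03 CPM in dKO and 4.11, 4.59 and 4.21 CPM in MED23 KO (-2.01 ± 0.19, adjusted p = 1.97e-08), and the synaptic calcium sensor SYT1 fell as well (-0.63 ± 0.089). The 4 neuronal markers summed to 8.38 to 10.3 CPM in dKO and 20.9 to 22.1 CPM in MED23 KO libraries. The 1 rise of the list, ENO2, became 2 without MED23 KO replicate 2. Of 9 epithelial genes 3 rose and 2 fell, the largest change being in the keratin KRT14 (1.85 ± 0.11). Of 5 blood cell genes 2 rose and none fell; LYZ (0.39 ± 0.11) and CD14 (1.11 ± 0.40) were the 2, and the omission of any library but dKO replicate 3 left 1 rise, with 1 fall without dKO replicate 1 or MED23 KO replicate 3.

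Subunits of Mediator changed by less than 0.5 on the log2 scale: 11 of 33 rose (33.3%) and 7 fell (21.2%), beside 19.1% and 18.9% of all genes tested. The rises were 7 without MED23 KO replicate 1 or 2. MED31, of the middle module (0.48 ± 0.12), and cyclin C, CCNC, of the kinase module (0.43 ± 0.062), rose most, and MED25 of the tail fell most (-0.42 ± 0.080). Of the 13 polyadenylated histone transcripts 1 rose and 5 fell, led by H2BC12 (-1.06 ± 0.092) and H2AC6 (-0.99 ± 0.092). Of 13 mitochondrial mRNAs 1 fell, MT-ND3 (-0.16 ± 0.064, adjusted p = 0.0467), and of 3 metallothioneins 1 rose, MT1X (0.33 ± 0.12, adjusted p = 0.0291); with replicates as blocks 3 mitochondrial mRNAs and 1 metallothionein fell. MT-ND3 lost its call without replicate 2 or 3 of either group, and MT1X without dKO replicate 1 or 2 or MED23 KO replicate 3.

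HDAC3 loss in MED23 knockout cells was last set beside HDAC3 loss in cells with MED23, a comparison that shares no library with it but whose Ctrl columns carry a GFP name and were assigned by elimination. In HDAC3 KO against Ctrl, 1732 genes were called at 2-fold (8.19%), 978 higher (4.63%) and 754 lower (3.57%). Of the genes called higher, 333 were called in both, which is 53.2% of the dKO list and 34% of the HDAC3 KO list. Of those called lower, 278 were in both (42.9% and 36.9%), and 12 genes were called in opposite directions. Across the 21139 genes the 2 log2 fold changes had a Pearson r of 0.54, and across the 11603 genes with a mean log2 CPM of at least 2 it was 0.65; genes are not independent replicates. IL24 rose in both, to 1347 CPM in HDAC3 KO against 52.4 CPM in Ctrl cells (4.69 ± 0.057); the changes differed by 0.22 (adjusted p = 0.0349; 0.0678 to 0.107 without dKO replicate 2, MED23 KO replicate 1 or 3, HDAC3 KO replicate 1 or Ctrl replicate 2 or 3), while the level in dKO lay below that in HDAC3 KO. TAC1 reached 34.7 CPM in HDAC3 KO, against 3.10 CPM in Ctrl (3.49 ± 0.088), and its changes differed by 0.0021 (SE 0.12, adjusted p = 0.994).

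The difference between the 2 effects was tested gene by gene. At an adjusted p under 0.05 and a 2-fold difference, 751 genes differed (3.55%), 301 with a higher (1.42%) and 450 with a lower change in dKO (2.13%). Of the 301, 153 rose and 34 fell in dKO against MED23 KO, while 19 rose and 190 fell in HDAC3 KO against Ctrl. Of the 450, 73 rose and 190 fell in dKO, while 336 rose and 18 fell in HDAC3 KO. The lower group thus held many genes that HDAC3 loss raised in cells with MED23. In MED23 knockout cells more of that group fell (190) than rose (73).

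**Figure D5:**
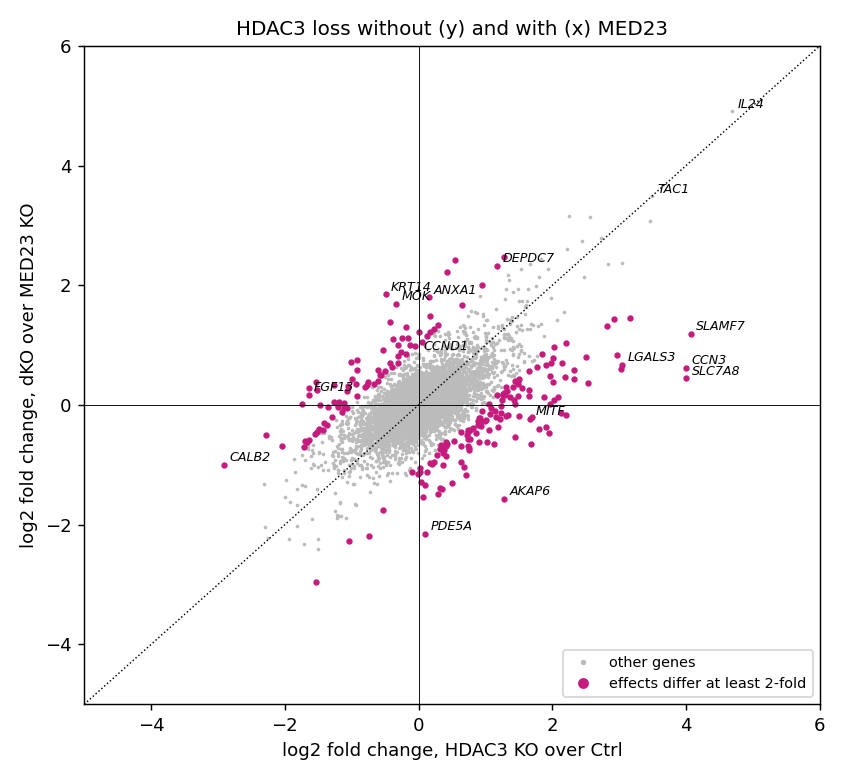
Log2 fold change of HDAC3 KO over Ctrl (x axis) against that of dKO over MED23 KO (y axis) for 11603 genes with a mean log2 CPM of at least 2; the dotted line marks equal changes and coloured points the 211 genes whose changes differ at least 2-fold at an adjusted p under 0.05. IL24 and TAC1 lie near the line, SLC7A8, CCN3 and SLAMF7 far to the right of it, and KRT14, MOK and ANXA1 above it.

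SLC7A8, an amino acid transporter, had the lowest difference among the genes plotted (-3.56, SE 0.17, adjusted p = 1.52e-12). It was at 2.95, 3.70 and 2.93 CPM in dKO and 2.53, 2.42 and 2.05 CPM in MED23 KO libraries, against 24.0, 23.8 and 24.7 CPM in HDAC3 KO and 1.82, 1.41 and 1.27 CPM in Ctrl libraries. Its small rise in dKO missed the threshold without dKO replicate 2 (adjusted p = 0.0721). CCN3, a matricellular protein, had 32.5, 36.5 and 33.2 CPM in dKO and 21.8, 22.3 and 22.5 CPM in MED23 KO, and 154, 157 and 161 CPM in HDAC3 KO against 9.13, 10.2 and 10.2 CPM in Ctrl (difference -3.38). SLAMF7, a receptor of immune cells (-2.88), AKAP6, a kinase anchor (-2.85), SEL1L3 (-2.43), the ligand WNT9A (-2.42), the lectin LGALS3 (-2.37) and the phosphoprotein osteopontin, SPP1 (-2.37), followed. LGALS3 had 83.8, 78.1 and 72.1 CPM in dKO and 49.0, 46.8 and 50.8 CPM in MED23 KO, and 382, 418 and 439 CPM in HDAC3 KO and 46.6, 50.8 and 52.6 CPM in Ctrl libraries. AKAP6 fell in dKO (-1.57 ± 0.094) and rose in HDAC3 KO (1.28 ± 0.091). SPP1 did not pass in dKO (-0.17 ± 0.069, adjusted p = 0.0582) unless replicates were blocks (-0.17, adjusted p = 0.0216).

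The differences in the other direction were smaller. KRT14, a basal keratin, had 14.6, 13.5 and 11.0 CPM in dKO and 4.08, 3.49 and 3.17 CPM in MED23 KO, and 7.85, 8.60 and 7.85 CPM in HDAC3 KO and 11.5, 11.8 and 11.0 CPM in Ctrl libraries (difference 2.34, SE 0.15, adjusted p = 8.61e-11). MOK, a MAP kinase relative, had 140.4, 133 and 128 CPM in dKO and 42.1, 41.2 and 41.2 CPM in MED23 KO, with 102, 97.4 and 98.5 CPM in HDAC3 KO and 126, 122 and 128 CPM in Ctrl (difference 2.03). In both genes dKO lay near Ctrl and MED23 KO lay lowest of the 4 groups. B3GNT7 (1.93), the adhesion protein AJAP1 (1.92), the calcium binder CALB2 (1.91), PLEKHS1 (1.88), SIRPB1 (1.82) and FGF13 (1.81) were the others. AJAP1, B3GNT7 and CALB2 fell in HDAC3 KO (-1.64 ± 0.088, -1.54 ± 0.084 and -2.90 ± 0.086 in that order); in dKO AJAP1 and B3GNT7 rose (0.28 ± 0.080 and 0.39 ± 0.084) and CALB2 fell (-0.996 ± 0.071). FGF13 did not pass in dKO (0.17 ± 0.069, adjusted p = 0.0638); with replicates as blocks it did (0.17, adjusted p = 0.0357). MOK and FGF13 overlap genes on the opposite strand.

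The lineage genes differed too. SOX10 rose with HDAC3 loss in MED23 knockout cells, whereas with MED23 present it was at 479.6, 484 and 447 CPM in HDAC3 KO and 454, 441 and 450.3 CPM in Ctrl libraries (0.069 ± 0.051, adjusted p = 0.307; difference 0.71, adjusted p = 1.74e-07). MITF did the reverse: HDAC3 KO libraries had 175, 184 and 195 CPM and Ctrl libraries 58.3, 56.7 and 59.8 CPM (1.66 ± 0.054), and the difference was -1.89 (adjusted p = 8.23e-14). CCND1 stood at 505, 479.5 and 476 CPM in HDAC3 KO and 496, 492 and 478 CPM in Ctrl (-0.0051 ± 0.038; difference 0.87, adjusted p = 7.55e-11). ANXA1 had 1702 CPM in HDAC3 KO and 1532 CPM in Ctrl (difference 1.65, adjusted p = 1.05e-13). DCT had 183, 174 and 184 CPM in HDAC3 KO and 1.09, 1.54 and 1.01 CPM in Ctrl libraries. In dKO libraries DCT had 2.65, 2.87 and 3.20 CPM, and in MED23 KO libraries 15 counts in all. EGFR fell in both (-1.18 ± 0.096 in HDAC3 KO; difference -0.46, adjusted p = 0.0134, and 0.0668 without HDAC3 KO replicate 1). CDKN1A rose in both (1.46 ± 0.046 in HDAC3 KO; difference -0.23, adjusted p = 0.0117, and 0.0541 without Ctrl replicate 2).

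Some lists moved differently in the 2 backgrounds. Over all genes tested the difference passed in the positive direction for 10% and in the negative for 10.5%. Of 21 cell cycle genes none rose and 15 fell in HDAC3 KO against Ctrl (median -0.27; over all genes 21.2% rose and 20.9% fell), where 8 had risen and 3 fallen in dKO against MED23 KO. The difference passed in the positive direction for 19 of the 21, and in the negative for none, with a median of 0.37. PCNA, for example, was at 309.8, 343 and 345 CPM in HDAC3 KO and 325, 350.1 and 355 CPM in Ctrl libraries (difference 0.59, adjusted p = 7.92e-07), and MKI67 at 602, 485 and 509.8 CPM in HDAC3 KO and 622, 595 and 581 CPM in Ctrl (difference 0.20, adjusted p = 0.118; 0.0462 with replicates as blocks and 0.00239 without HDAC3 KO replicate 1). Lysosome and autophagy genes went the other way: 16 of 19 rose and 1 fell in HDAC3 KO, by a median of 0.70, and the difference passed in the negative direction for 18 of the 19 (median -0.57). GPNMB reached 628, 583 and 614 CPM in HDAC3 KO, against 138, 137 and 137 CPM in Ctrl libraries (difference -1.45, adjusted p = 8.23e-14). Of the 19 YAP and TEAD targets 4 rose and 11 fell in HDAC3 KO, and the difference was positive for 11 and negative for 3. Among 14 melanocytic genes 6 rose and 1 fell in HDAC3 KO, and the difference was negative for 5 and positive for 0. For 11 of 18 matrix and TGF-beta genes it was negative, FN1 among them (0.76 ± 0.053 in HDAC3 KO; difference -1.48, adjusted p = 3.68e-12). Class II genes rose in both backgrounds, 11 of 11 each, and 5 differences passed, all positive. Against Ctrl, the 11 class II genes were all lower in MED23 KO (median -1.09), beside 12% of all genes tested. In dKO against Ctrl 3 were higher, 4 lower and 4 did not pass (median -0.056), beside 18.2% higher and 18.4% lower over all genes. These comparisons share the Ctrl libraries.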

How the data were processed

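Poly(A) RNA of A375 cells was extracted with a column kit and made into stranded libraries, per the labels' protocols. Reads were demultiplexed with bcl2fastq, aligned with HISAT2 to hg38 and counted with HTSeq, per the submitters' processing notes; tool versions, the annotation and the strand setting were not found in these sources. The authors deposited whole-number counts per gene, not normalized. The table used holds 58721 gene IDs, of which 58207 matched a current symbol and 58676 GENCODE release 29. Names of 3 columns carry GFP and were assigned to Ctrl by elimination, which touches only comparisons with Ctrl; 0 columns were left without a sample.

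Counts of the 12 libraries of 4 groups were fitted with edgeR 4.0.16 (R 4.3.3; limma 3.58.1) by its quasi-likelihood F test, with TMM scaling and no block. Genes passed a filter of a minimum count of 10 and a minimum total of 15, and p-values were Benjamini-Hochberg adjusted over the 21139 genes tested. Depth of the 6 libraries was 58.8 to 106 M counts. Alternatives were no filter, DESeq2 size factors, the DESeq2 1.42.0 Wald test, a replicate block, the compared groups alone, no fold minimum, other MED23 sets and the omission of each library. The procedure was also run on simulated counts with known changes in a small share of genes. Libraries were simulated without pairing, so that run does not bear on pairing or on a larger share of changed genes. Deviations from the group means of dKO and MED23 KO libraries with the same number correlated at 0.152 to 0.332, above 0.1 in all 3 pairs. Those with unlike numbers correlated at -0.291 to 0.175. Numbers may therefore pair the libraries, but the labels state no shared batch or day for them. The main fit used no block, so its p-values leave out any such pairing. The replicate block is given as an alternative.

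Members and gene lists were chosen with earlier results of these data known. Named genes are HDAC3, MED23, corepressor members, the 15 highest and 15 lowest changes, the 8 highest and 8 lowest differences between the 2 HDAC3 effects, up to 5 members of each list with the largest change past the test, and SOX10, MITF, AXL, EGFR, DUSP6, CCND1, CDKN1A and MKI67. CD74, CDKN1B, CXCL1, ERBB3, FN1, HDAC1, HDAC2, HLA-DMA, HLA-DPB1, HLA-DQB1, HLA-DRB1, HSPA5, S100B, SPARC, SPRED3, TFAP2A, TFAP2B, TFE3, TGFBI and THBS1 were named after their values were seen, as were the differences of FN1, PCNA, IL24 and TAC1. Some genes that this rule or these lists hold are not reported here by name; they stay in the counts. Apart from genes marked in the text, counts of BHLHE41, CCN2, CCNC, CCNE2, DDIT3, DNAJB9, EGR3, FADS2, HDAC2, HDAC7, IER3, LPCAT3, LSS, LYZ, MDM2, MED25, MED31, NR1H3, OAS1, PMEL, PRAME, RAB27A, SPARC, SQSTM1, SYT1, TFAP2A, THBS1, TNFRSF10B and WIPI1 are uncertain because exons of another gene overlap theirs on the opposite strand, and those of ASNS, COL3A1, ERBB3, HDAC10, MT1X, RRM2, SIRPB1 and TGFB2 because of an overlap on the same strand.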

Additional observations from a re-analysis of the deposited data

Results flagged for a closer look

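For 37 named genes the effect of HDAC3 loss in MED23 knockout cells (dKO against MED23 KO) differed at least 2-fold from that in cells with MED23 (HDAC3 KO against Ctrl), by the test of the difference itself in edgeR (adjusted p under 0.05). The values below are that difference on the log2 scale. A negative value means a lower change in the MED23 knockout background.

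Of the genes with the largest changes in dKO, PLEKHS1 (1.882) and DEPDC7 (1.151) had positive differences. DOCK2 (-1.366), NPTX2 (-1.424), NR2F1 (-1.234), TMTC1 (-1.451), METTL7A (-1.334), PDE5A (-2.245) and LPAR1 (-1.765) had negative ones. Genes named for the difference itself, so that its size is a description, were KRT14 (2.345), MOK (2.027), B3GNT7 (1.931), AJAP1 (1.919), CALB2 (1.908), SIRPB1 (1.816) and FGF13 (1.808), and on the negative side SLC7A8 (-3.558), CCN3 (-3.38), SLAMF7 (-2.881), AKAP6 (-2.847), SEL1L3 (-2.427), WNT9A (-2.424), LGALS3 (-2.373) and SPP1 (-2.368).

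Among list members, ANXA1 (1.649) differed upward. Downward were the lineage factor MITF (-1.89), the metabolic genes PDK4 (-1.241) and PPARGC1A (-4.128), the stress factor ATF3 (-1.161), the interferon and cytokine genes IFIT1 (-1.133) and CCL2 (-2.255), the lysosomal genes TFEB (-1.284) and GPNMB (-1.448), the matrix genes FN1 (-1.481) and TGFBI (-1.976), the neuronal gene MAP2 (-5.14) and the histone gene H2AC6 (-1.192). MAP2 had few counts in dKO, HDAC3 KO and Ctrl libraries. The difference of TFEB missed the threshold without HDAC3 KO replicate 1 (-1.006, adjusted p = 0.0512).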

How the results depend on the processing

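Of 176 named genes, 163 kept their direction and side of the threshold under all 11 alternatives; the exceptions were MED23, TBL1X, GPS2, KDM4A, FGF13, SLC7A8, SPP1, MKI67, ASNS, CD14, MT-ND3, MT1X and OCA2. The sign turned for GPS2 (-0.06084 without dKO replicate 2, 0.08526 without dKO replicate 3 at the other end) and MKI67 (-0.02713 without dKO replicate 3, 0.0539 without dKO replicate 2). Of 58 list counts, 44 stayed within 1.5 times under all 11. Of 46 differences between the 2 HDAC3 effects, 39 kept their call under 16 alternatives, the others being TFEB, EGFR, CDKN1A, HDAC3, IL24, MKI67 and TAC1; that of TAC1, near 0, was -0.0007533 with the replicate block and -0.09663 to 0.07077 with 1 library left out. With no fold minimum 4038 genes were higher and 3995 lower in dKO, 4476 and 4415 in HDAC3 KO, and 2115 and 2218 differences were positive and negative. With the replicate block 622 genes were higher and 645 lower in dKO, and it changed the calls of FGF13, SPP1 and the difference of MKI67 and no other named gene. Fitted on the compared groups alone, 531 genes were higher and 610 lower in dKO, and without the low-count filter 679 and 771. Leaving out 1 library gave 580 to 612 higher and 578 to 662 lower genes in dKO, 934 to 971 and 676 to 746 in HDAC3 KO, and 262 to 305 and 409 to 460 positive and negative differences. HDAC3 then ranged from -0.7962 to -0.7498, members of the raised MED23 set from 18 to 21 risen and 243 to 254 fallen, and of the lowered set from 227 to 234 risen and 12 to 17 fallen. Sets from the first MED23 experiment alone hold more genes by construction, 673 raised and 642 lowered genes tested. Of the raised genes 39 rose (5.79%) and 334 fell (49.6%). Of the lowered genes 361 rose (56.2%) and 46 fell (7.17%). In the main sets 68.1% of raised genes fell and 72.3% of lowered genes rose, which are larger shares. Fitted on the compared groups alone, 10 lowered genes of the main set fell, and the cause was not tested. Depth limits genes under 1 CPM.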
